A study of Mus musculus with 29 samples.

Results

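The nuclear genes of the mitochondrial respiratory chain were examined in the embryonic mouse cortex, as 90 protein-coding genes of the 48709 gene identifiers in the count files. They were chosen by symbol alone, from the prefixes that name NADH dehydrogenase, cytochrome c oxidase, the cytochrome bc1 complex and ATP synthase: 47 belong to complex I, 8 to complex III, 18 to complex IV and 17 to complex V. The prefix rule takes in 8 assembly factors of complex I (Ndufaf1 to Ndufaf8), which help to build the enzyme and are not part of it. It also counts Ndufa4 under complex I, although its product is found in complex IV, and Cox7a2l under complex IV, although its product joins complexes into supercomplexes. Pseudogenes of the same families were left out, and 2 further genes of the rule, Ndufb1 and Ndufb4b, were not analysed here.

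The libraries came from mouse cortex at E16.5, late in the formation of cortical neurons, treated with vehicle or with TSA (trichostatin A, an inhibitor of histone deacetylases), and from nuclei sorted by the protein Tbr2. Tbr2, the product of Eomes, marks basal progenitors, the cells that divide away from the ventricle to give cortical neurons, while the Tbr2-negative fraction holds the other cells of the cortex. The RNA groups were Tbr2-positive vehicle (3 libraries), Tbr2-positive TSA (2), Tbr2-negative vehicle (3) and Tbr2-negative TSA (2), and the groups with H3K9ac, an acetyl mark on histone H3 found at active gene starts, held 3 Tbr2-positive vehicle libraries and 4 in each other group. All groups share the age, and the labels name no transgene, strain, dose or length of treatment. They describe RNA extraction from whole tissue, where the series text describes sorted nuclei. They do not say whether replicates are separate embryos, so p-values measure only the spread between these samples, which may be technical.

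The respiratory chain passes electrons from NADH through complex I, ubiquinone, complex III, cytochrome c and complex IV to oxygen, and pumps protons as it does so; complex V lets the protons flow back and makes ATP. Most subunits are encoded in the nucleus and imported, while a few core subunits are encoded by mitochondrial DNA, so the 2 genomes together supply each enzyme. In the developing cortex, progenitors are known for a larger part of glycolysis in their energy supply and neurons for a larger part of oxidative phosphorylation.

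Depth was similar across the RNA libraries, at 18567111 to 26282652 counts each. Eomes checked the sort: it stood at 443 ± 93.3 CPM in Tbr2-positive and 18 ± 4.04 CPM in Tbr2-negative vehicle libraries (SD, n = 3 each), where CPM is the depth-scaled read count, relative to the TMM-scaled library total. All 10 basal progenitor markers of the list used were higher in the Tbr2-positive vehicle libraries. Of the 90 genes, 86 had enough reads to be tested with edgeR's quasi-likelihood test. Cox6a2 and Ndufb4c had 30 and 7 counts over all 10 libraries, and Cox8b and Cox8c had none. The H3K9ac peak lists held 31823 to 82164 peaks per library.

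TSA-treated libraries of both populations held more respiratory chain RNA than vehicle libraries. The summed level of the 90 genes was 13075, 14828 and 15832 CPM in Tbr2-positive vehicle and 21789.9 and 18777 CPM in Tbr2-positive TSA libraries. In the Tbr2-negative fraction it was 13415, 16342 and 14091 CPM with vehicle and 25461 and 20792 CPM with TSA. Every TSA library lay above every vehicle library of its population, and this share of the RNA went from between 1.36% and 1.65% of counts over the vehicle libraries to between 1.86% and 2.32% over the TSA libraries. In bulk RNA, a change in the share of cells of one type and a change in RNA per cell cannot be told apart.

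**Figure D1:**
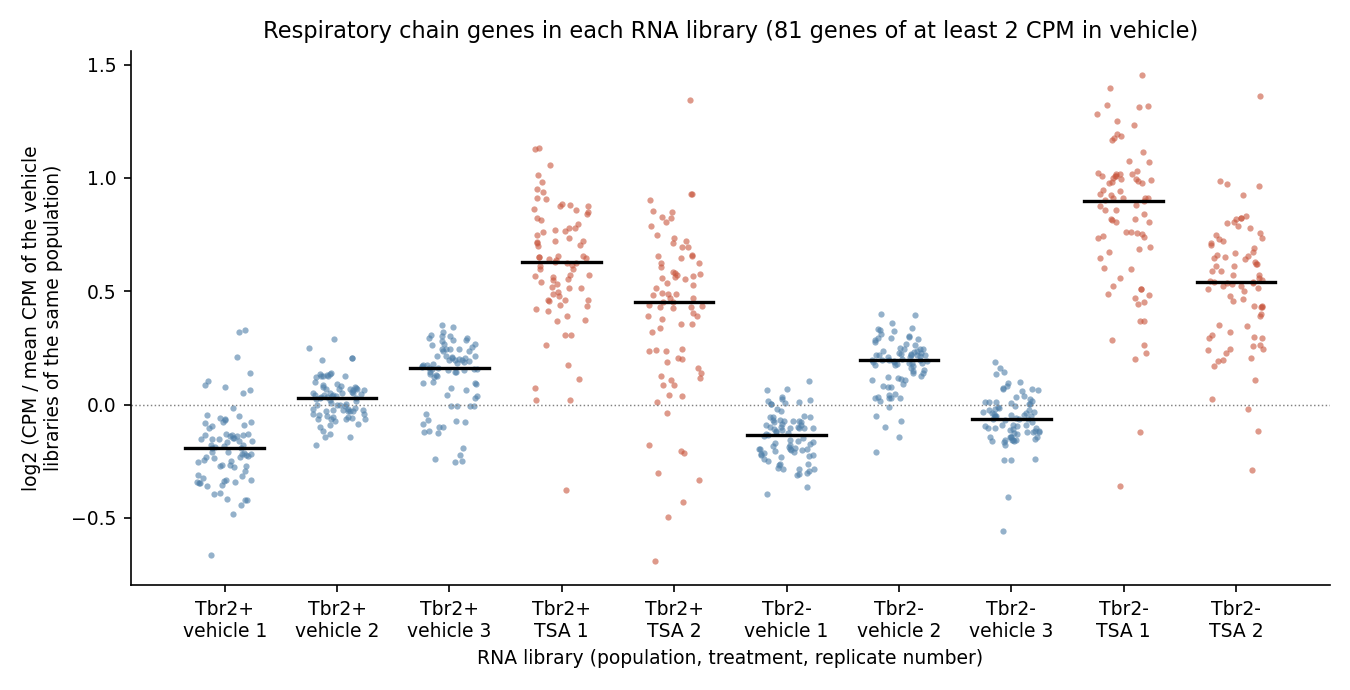
Each point is 1 of 81 respiratory chain genes of at least 2 CPM in Tbr2-positive vehicle, placed by the log2 ratio (vertical axis) of its CPM in that library (horizontal axis) to its mean in the vehicle libraries of the same population; black lines are library medians. The 4 TSA libraries (red) sit above the 6 vehicle libraries (blue), and within each population the first TSA library lies above the second.

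Averaged over both populations, 61 of the 86 tested genes rose with TSA and 0 fell (edgeR, adjusted p below 0.05), against 6.39% of all 20078 genes tested that rose and 4.46% that fell. The median log2 fold change of the genes was 0.67, a level 1.59 times that of vehicle, beside -0.08 for all genes, and 83 of 86 values were above 0. All 4 complexes took part: 33 of 46 tested genes rose in complex I, 6 of 8 in complex III, 9 of 15 in complex IV and 13 of 17 in complex V, with medians of 0.66, 0.68, 0.67 and 0.64. Without the first Tbr2-negative TSA library, 18 genes rose in place of 61.

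By role, complex I held 7 catalytic subunits, 30 accessory subunits and 8 assembly factors. Of the 30 accessory subunits, counted by prefix and so with Ndufa4 of complex IV, 27 rose, with a median log2 fold change of 0.68. The others of the 30 surround the enzyme's core. Ndufc1, a small subunit of the membrane arm, read 77.0, 90.2 and 96.5 CPM in Tbr2-positive vehicle and 162 and 147 CPM in Tbr2-positive TSA libraries. It read 72.9, 108 and 89.2 CPM in Tbr2-negative vehicle and 204 and 179 CPM in Tbr2-negative TSA libraries. The vehicle and TSA values of Ndufc1 did not overlap in either population, and its mean rise was 1.93-fold (log2 fold change 0.95 ± 0.13 SE, adjusted p = 0.00531, edgeR). Ndufb6, another membrane arm subunit, rose 1.96-fold (log2 fold change 0.97 ± 0.14 SE, adjusted p = 0.00531, edgeR).

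The 7 catalytic subunits of complex I, which hold its flavin, iron-sulfur clusters and quinone site, had a median of 0.53, and 4 of them rose. Those were Ndufs3, Ndufs7, Ndufs8 and Ndufv2, at log2 fold changes of 0.53, 0.70, 0.57 and 0.62. Ndufv1, which binds NADH, read 217, 236 and 237 CPM with vehicle and 307 and 237 CPM with TSA in the Tbr2-positive fraction. In the Tbr2-negative fraction Ndufv1 read 235, 223 and 197 CPM with vehicle and 262 and 235 CPM with TSA. The groups overlapped in the Tbr2-positive fraction and all but touched in the Tbr2-negative fraction, and Ndufv1 did not pass the test (log2 fold change 0.21 ± 0.11 SE, adjusted p = 0.237, edgeR).

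Ndufs1, the largest subunit of complex I and the bearer of several iron-sulfur clusters, had values below vehicle where most members of the complex had values above. It read 190.0, 209 and 177 CPM in Tbr2-positive vehicle and 148 and 136 CPM in Tbr2-positive TSA libraries. In Tbr2-negative libraries Ndufs1 read 136, 153 and 145 CPM with vehicle and 133 and 143 CPM with TSA. Both TSA libraries lay below all 3 vehicle libraries in the Tbr2-positive fraction and overlapped them in the Tbr2-negative fraction. The difference passed the test in neither population nor in their mean (log2 fold change -0.25 ± 0.10 SE, adjusted p = 0.131, edgeR).

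Among the 8 assembly factors of complex I, 2 rose, namely Ndufaf2 (log2 fold change 0.98 ± 0.19 SE) and Ndufaf8 (0.63 ± 0.18 SE). The median of the 8 was 0.34. Ndufaf7, a mitochondrial methyltransferase, read 65.1, 70.6 and 70.1 CPM in Tbr2-negative vehicle and 53.5 and 56.2 CPM in Tbr2-negative TSA libraries. Both TSA libraries lay below all vehicle libraries there. Its log2 fold change in that fraction was -0.32 ± 0.16 SE, and it did not pass the test (edgeR adjusted p = 0.283).

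In complex III, 5 of 5 small subunits rose, with a median log2 fold change of 0.82, as did 1 of the 3 core subunits. Uqcrb, a small subunit near the quinone site, read 90.8, 110.3 and 124 CPM in Tbr2-positive vehicle and 203 and 192 CPM in Tbr2-positive TSA libraries. In the Tbr2-negative fraction Uqcrb read 95.6, 136 and 103 CPM with vehicle and 256 and 197 CPM with TSA. The groups did not overlap in either fraction, and the mean rise was 1.92-fold (log2 fold change 0.94 ± 0.14 SE, adjusted p = 0.00531, edgeR). Uqcrfs1, the Rieske iron-sulfur protein, was that core subunit (log2 fold change 0.43 ± 0.12 SE, adjusted p = 0.0444, edgeR). Uqcrc1, a large core subunit, read 521 and 252 CPM in the Tbr2-positive TSA libraries, on both sides of its 287, 349 and 316 CPM in vehicle, and did not pass (log2 fold change 0.20 ± 0.17 SE, adjusted p = 0.49, edgeR).

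In complex IV, 8 of the 10 ubiquitous subunits rose, with a median of 0.67. Cox7b, a small subunit encoded on the X chromosome, read 150.3, 165 and 181 CPM in Tbr2-positive vehicle and 255 and 419.8 CPM in Tbr2-positive TSA libraries. In the Tbr2-negative fraction Cox7b read 178, 215 and 170.0 CPM with vehicle and 353 and 481 CPM with TSA. Its mean rise was 2.13-fold (log2 fold change 1.09 ± 0.15 SE, adjusted p = 0.00531, edgeR). The second TSA library was the higher one for Cox7b in both fractions, whereas the first was the higher one for 75 of the 86 genes in the Tbr2-positive and for 79 in the Tbr2-negative fraction. Cox4i1, the ubiquitous form of a regulatory subunit, rose 1.37-fold (log2 fold change 0.45 ± 0.12 SE, adjusted p = 0.0324, edgeR), while Cox5a and Cox6a1 missed the threshold at log2 fold changes of 0.46 and 0.37 (edgeR adjusted p = 0.0562 and 0.0619). Ndufa4, the complex IV subunit with a complex I name, rose 1.59-fold (log2 fold change 0.67 ± 0.13 SE, adjusted p = 0.00986, edgeR).

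In complex V, 8 of 9 subunits of the outer stalk and the membrane part rose, with a median of 0.72. Atp5mpl, a small membrane subunit, read 82.2, 99.8 and 109 CPM in Tbr2-positive vehicle and 196 and 184 CPM in Tbr2-positive TSA libraries. In the Tbr2-negative fraction Atp5mpl read 113, 165 and 118 CPM with vehicle and 328 and 226 CPM with TSA. Neither pair of groups overlapped, and the mean rise was 2.03-fold (log2 fold change 1.02 ± 0.15 SE, adjusted p = 0.00531, edgeR).

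Of the 5 subunits of the catalytic F1 head, 3 rose: Atp5e, Atp5d and Atp5c1, which form its central stalk. Atp5e, the smallest of them, read 50.2, 68.4 and 79.3 CPM in Tbr2-positive vehicle and 145 and 123 CPM in Tbr2-positive TSA libraries, and 63.9, 95.3 and 73.6 against 204 and 152 CPM in the Tbr2-negative fraction. It rose 2.16-fold (log2 fold change 1.11 ± 0.16 SE, adjusted p = 0.00531, edgeR). Atp5b, which carries the catalytic sites, read 684, 701 and 697 CPM in Tbr2-negative vehicle and 812 and 793 CPM in Tbr2-negative TSA libraries. In the Tbr2-positive fraction Atp5b read 796, 751 and 619 CPM with vehicle and 993 and 638 CPM with TSA. The groups did not overlap in the Tbr2-negative fraction, the second Tbr2-positive TSA library lay within the vehicle range, and the gene did not pass (log2 fold change 0.19 ± 0.13 SE, adjusted p = 0.373, edgeR). Subunit c, which forms the turning ring of the membrane part, is made from 3 genes whose mature proteins are identical. Of these, Atp5g1 rose 1.80-fold (log2 fold change 0.85 ± 0.12 SE, adjusted p = 0.00531, edgeR) and Atp5g3 1.35-fold (log2 fold change 0.44 ± 0.11 SE, adjusted p = 0.029, edgeR), while Atp5g2 did not pass (log2 fold change 0.23 ± 0.16 SE, adjusted p = 0.379, edgeR).

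**Figure D2:**
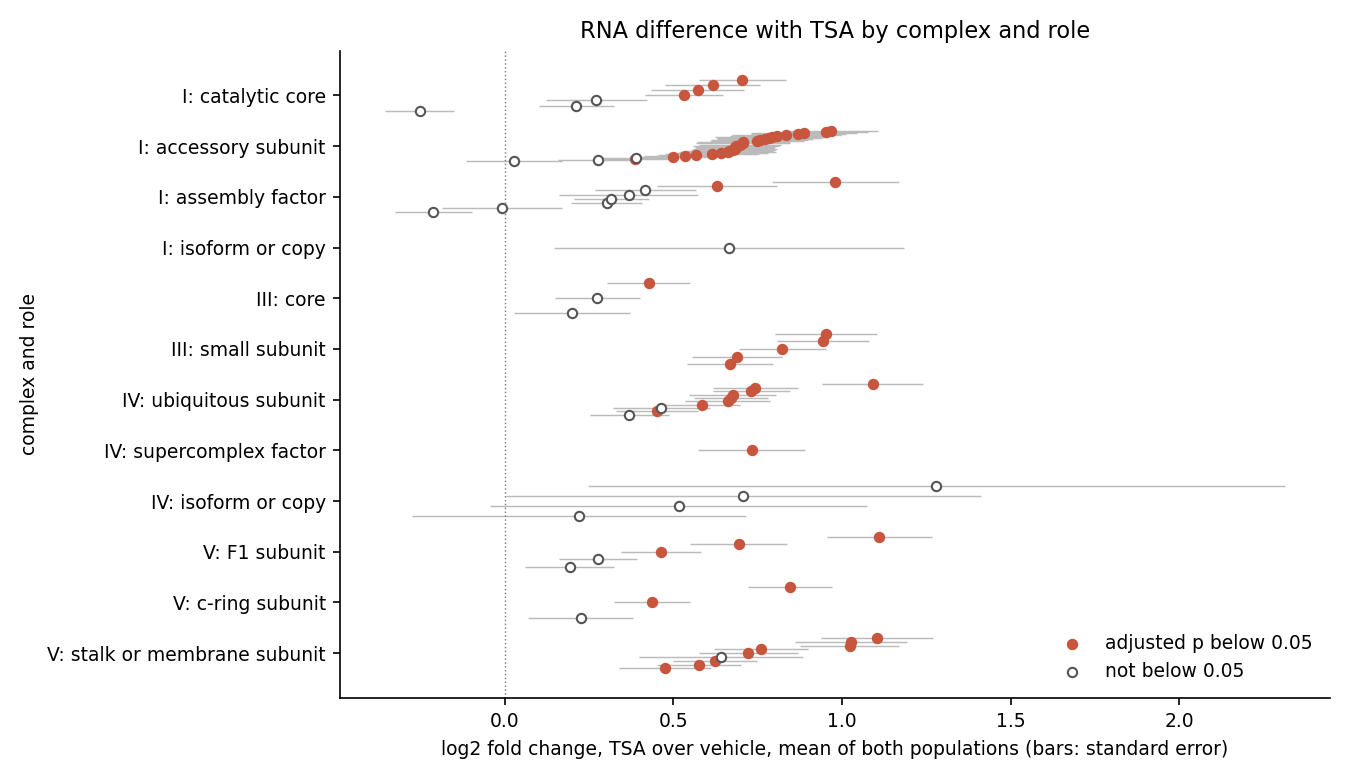
Each point is 1 of the 86 tested genes, placed by its log2 fold change of TSA over vehicle averaged over both populations (horizontal axis, bars are standard errors) in the row of its complex and role; filled points have an edgeR adjusted p below 0.05. Accessory and small subunits lie mostly between 0.5 and 1.1, with catalytic subunits and assembly factors spread lower, and the tissue isoforms of complexes I and IV have wide bars.

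Taken by population, the Tbr2-negative fraction had 23 genes that rose and none that fell (edgeR, adjusted p below 0.05), against 0.817% of all genes that rose and 0.359% that fell. All 23 also rose in the mean of both populations. They comprised 9 genes of complex I, 3 of complex III, 4 of complex IV and 7 of complex V, and the smallest adjusted p was 0.0481, shared by Ndufc1, Atp5e, Cox7b, Ndufb6 and Uqcrb among others. Their log2 fold changes were 1.09 ± 0.18 for Ndufc1, 1.20 ± 0.22 for Atp5e and 1.15 ± 0.21 for Cox7b. For Ndufb6 and Uqcrb the values were 1.06 ± 0.20 and 1.02 ± 0.19 (SE). The median over the 86 genes was 0.73, and both TSA libraries lay above all 3 vehicle libraries for 75 genes and below them for 1, Ndufaf7, against 19.7% and 21.0% of all genes. These calls lay close to the threshold: none remained without the first or the second Tbr2-negative TSA library, without the first or the third Tbr2-negative vehicle library, or without the second Tbr2-positive vehicle library. There were 46 without the second Tbr2-negative vehicle library and 39 without the first Tbr2-positive TSA library, and DESeq2 called 60 genes higher, against 3.56% of all genes.

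In the Tbr2-positive fraction, no respiratory chain gene passed edgeR's test, and 0.0% of all genes did in either direction. At an unadjusted p under 0.05 there were 58 of the 86 genes, and DESeq2 called 30 higher, against 1.83% of all genes. The median log2 fold change was 0.56, beside -0.04 for all genes, and 82 of 86 values were above 0. Both TSA libraries lay above all 3 vehicle libraries for 66 genes and below them for 1, Ndufs1, against 15.9% and 17.6% of all genes. The smallest adjusted p was 0.0948, shared by Cox7b (1.03 ± 0.21 SE), Atp5mpl (0.97 ± 0.21 SE), Atp5e (1.02 ± 0.22 SE) and Ndufc1 (0.82 ± 0.18 SE). Below 0 lay Ndufs1 at -0.44 ± 0.14, Ndufaf1 at -0.23 ± 0.25, Ndufab1 at -0.19 ± 0.20 and Ndufaf7 at -0.10 ± 0.16 (SE), none of which passed.

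The difference between the TSA effects of the 2 populations was itself tested, and no respiratory chain gene passed (edgeR, 0 of 86 also at an unadjusted p under 0.05, and 0 with DESeq2), against 0.0% of all genes. The median of that difference, Tbr2-positive minus Tbr2-negative, was -0.18, and 8 of 86 values were above 0. Without 1 library that median ranged from -0.33 to -0.016. Other protein-coding genes had medians of -0.06, -0.07 and -0.08 for genomic spans under 5 kb, 5 to 10 kb and 10 to 30 kb. For spans of 30 to 100 kb and over 100 kb their medians were -0.0008 and 0.06. The smallest p-values below 0 belonged to Ndufs1 (-0.37 ± 0.20 SE), the stalk subunit Atp5h (-0.39 ± 0.25), Ndufab1 (-0.43 ± 0.29) and the accessory subunit Ndufb9 (-0.32 ± 0.23). Above 0 they belonged to Ndufaf7 (0.22 ± 0.22), Uqcrc1 (0.17 ± 0.35), Atp5l (0.18 ± 0.49) and Ndufv1 (0.05 ± 0.22), and the smallest adjusted p was 0.897 (edgeR). Atp5l, a membrane subunit of complex V at 5.1 to 14.2 CPM, has near-identical pseudogene copies. Of these, Atp5l-ps1, Atp5l-ps2 and Atp5l2-ps read at most 0.319, 0.212 and 0.334 CPM. How reads shared by Atp5l and its copies were counted is not known.

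Lists of energy supply outside the prefix rule are short, and they held genes that rose and genes that fell. Of all genes tested, 6.39% rose and 4.46% fell in the mean of both populations. Complex II, the 4-subunit succinate dehydrogenase that feeds electrons to ubiquinone, had 2 genes that rose with TSA and 1 that fell in the mean of both populations. Its membrane anchors Sdhd and Sdhc rose (log2 fold change 0.71 ± 0.13 SE, adjusted p = 0.00848, and log2 fold change 0.52 ± 0.14 SE, adjusted p = 0.0324, edgeR), while Sdha, the flavin-binding catalytic subunit, fell (log2 fold change -0.47 ± 0.11 SE, adjusted p = 0.0192, edgeR). Of 18 electron carriers and makers of ubiquinone, 2 rose and 1 fell. Cycs, the cytochrome c that carries electrons from complex III to IV, and Coq7, an enzyme of ubiquinone synthesis, rose (0.78 and 0.39), while Coq8a, a kinase-like protein of the same synthesis, fell (-1.55). Of 36 tested assembly factors outside the prefix rule, 8 rose and none fell, among them Uqcc2 for complex III (0.97) and Coa3 for complex IV (0.75). Glycolysis had 3 that rose (Aldoa, Gapdh and Tpi1) and 1 that fell (Pfkp) of 19.

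Known regulators of respiratory chain genes gave no call. Of 13 such genes, which include the factors Nrf1, Gabpa, Yy1 and Esrra and the coactivator Ppargc1a, none passed edgeR's test in the mean of both populations, and their median was -0.11, with 5 at an unadjusted p under 0.05. The 7 tested of 13 mitochondrially encoded subunits gave no call either, with a median of 0.84 and 3 at an unadjusted p under 0.05. Their summed level ranged widely within the vehicle groups, from 558 to 2530.0 CPM in Tbr2-positive and from 391 to 1883 CPM in Tbr2-negative libraries.

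Lists that are no part of the respiratory chain also held genes that rose or fell with TSA. Of 77 tested genes for cytosolic ribosomal proteins, 73 rose and none fell in the mean of both populations, with a median of 0.85, and of 77 for mitochondrial ribosomal proteins, 37 rose and none fell, with a median of 0.44. Of 10 nuclear-retained long noncoding transcripts, 4 fell (Neat1, Miat, Snhg11 and Meg3) and none rose, with a median of -0.54. The summed level of the noncoding RNAs was 11935 to 14950.5 CPM in Tbr2-positive vehicle and 6882 to 12682 CPM in Tbr2-positive TSA libraries, and 10550.3 to 15026 against 6773 to 8666 CPM in the Tbr2-negative fraction. The part of RNA quality or of carried-over cytoplasmic RNA in the respiratory chain result was not tested.

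**Figure D3:**
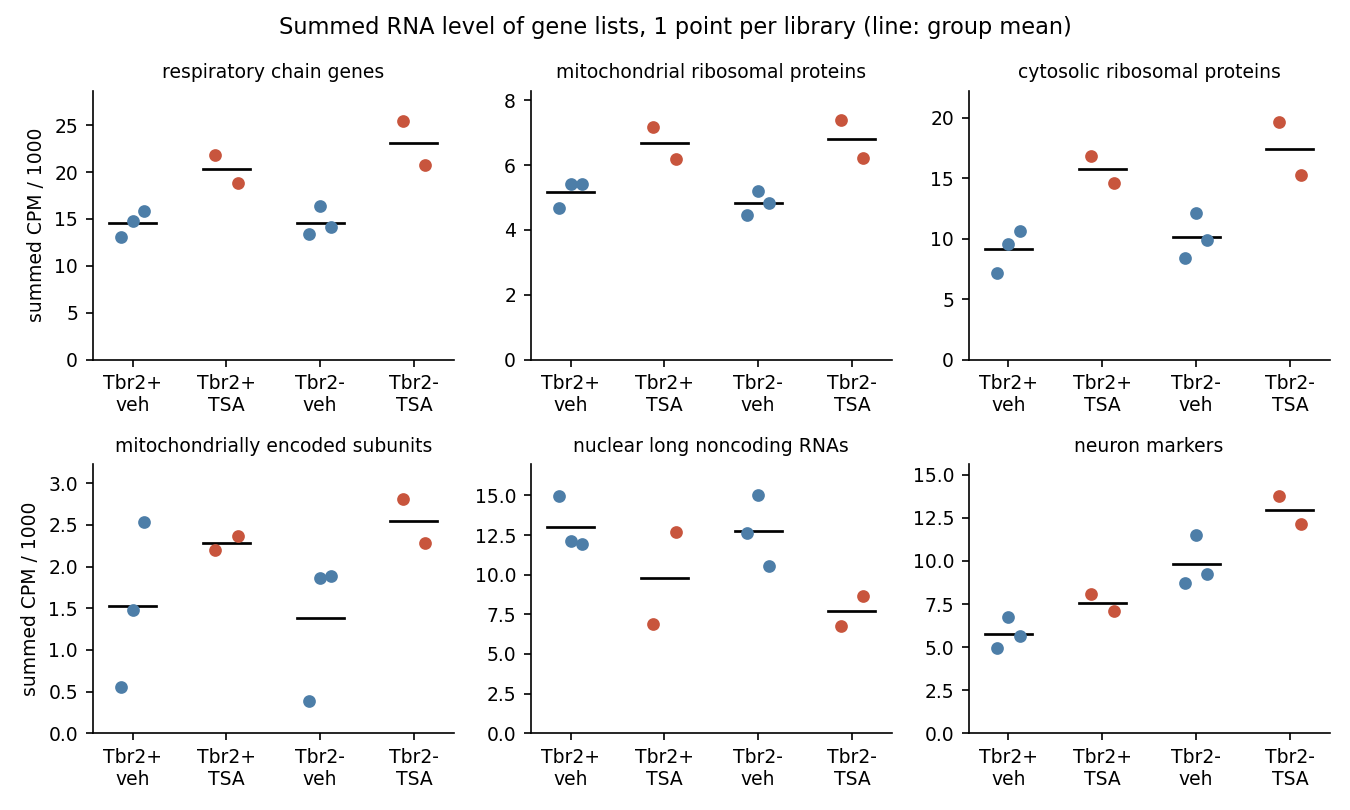
Each point is the summed CPM (vertical axis, divided by 1000) of a gene list in 1 RNA library, by group (horizontal axis, veh is vehicle); lines are group means. Respiratory chain genes, both kinds of ribosomal protein genes and neuron markers are higher in every TSA library than in any vehicle library of the same population, while the Tbr2-positive groups overlap for mitochondrially encoded subunits and for nuclear long noncoding RNAs.

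Among cell type markers, most calls came from the neuron and interneuron lists. Of all genes tested, 6.39% rose and 4.46% fell in the mean of both populations. Of 10 neuron markers, 3 rose with TSA in the mean of both populations (Stmn2, Gap43 and Bcl11b) and none fell, and their summed level was 4924 to 6741 CPM with vehicle and 7087 to 8064 CPM with TSA in the Tbr2-positive, and 8716 to 11531 and 12134 to 13767 CPM in the Tbr2-negative fraction. Of 10 interneuron markers, 2 rose (Sst and Dlx5), with summed levels of 112 to 223 and 204 to 228 CPM in the Tbr2-positive and 713 to 811 and 1293 to 1383 CPM in the Tbr2-negative fraction. The vehicle and TSA ranges did not overlap for neuron markers in either fraction or for interneuron markers in the Tbr2-negative fraction. They overlapped for interneuron markers in the Tbr2-positive fraction. No marker of either list was at 0 in all libraries. Microglia, erythroid, vascular, oligodendrocyte precursor and choroid plexus lists had no marker past the threshold in this comparison, and basal progenitor and radial glia lists had 1 each that rose, Insm1 and Sox2. Summed oligodendrocyte precursor markers read 6.82 to 12.9 CPM with vehicle and 18.3 to 20.2 CPM with TSA in the Tbr2-positive fraction. In the Tbr2-negative fraction they read 38.8 to 55.7 and 65.6 to 66.3 CPM. Radial glia (886 to 956 and 1107 to 1178 CPM) and basal progenitor markers (533 to 564 and 743 to 784) did not overlap there. Both overlapped in the Tbr2-positive fraction, and the microglia, erythroid, vascular and choroid plexus lists did in both. The part of cell composition in the respiratory chain result was not tested.

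Respiratory chain genes are short. The 86 tested genes had a median genomic span of 7.23 kb, against 25 kb for the 14504 other protein-coding genes tested. In the mean of both populations, the median log2 fold change of other protein-coding genes was 0.23 for spans under 5 kb, 0.06 for 5 to 10 kb and -0.01 for 10 to 30 kb. In the same 3 bins the 26, 34 and 20 respiratory chain genes had medians of 0.68, 0.67 and 0.50. Above 30 kb there were 6 such genes, among them the assembly factor Ndufaf2. The part of gene size in the respiratory chain result was not tested beyond these bins, in each of which the respiratory chain genes had the higher median.

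Between the 2 populations, 2 respiratory chain genes differed with vehicle, while Eomes was 24.5-fold higher in the Tbr2-positive fraction (log2 fold change 4.62 ± 0.26 SE, adjusted p = 1.05e-06, edgeR). Of the 86 genes, these 2 were higher in Tbr2-positive libraries and none lower (edgeR, adjusted p below 0.05), against 9.96% and 11.5% of all genes. The median log2 fold change was 0.00, with a range from -0.53 to 0.68. The Tbr2-positive libraries lay wholly above the Tbr2-negative ones for 8 genes and wholly below for 3, against 18.4% and 21.3% of all genes. Summed by complex, the means of Tbr2-positive and Tbr2-negative vehicle libraries were 6354 ± 731 and 6247 ± 716 CPM for complex I, and 1379 ± 148 and 1446 ± 138 CPM for complex III. For complex IV they were 2562 ± 284 and 2706 ± 169 CPM, and for complex V 4283 ± 297 and 4218 ± 515 CPM (SD, n = 3 each). None of these pairs differed by more than the spread between replicates.

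The 2 genes that differed were Ndufab1 and Ndufs1. Ndufab1, which is both a complex I subunit and the acyl carrier protein of mitochondrial fatty acid synthesis, read 107, 77.4 and 71.5 CPM in Tbr2-positive and 56.5, 50.0 and 59.2 CPM in Tbr2-negative vehicle libraries, without overlap. It was 1.54-fold higher in the Tbr2-positive fraction (log2 fold change 0.63 ± 0.18 SE, adjusted p = 0.0252, edgeR). Ndufs1, whose values are given above, was 1.33-fold higher there (log2 fold change 0.41 ± 0.13 SE, adjusted p = 0.0381, edgeR), again without overlap. Both calls depend on single libraries: none passed without the first Tbr2-positive, the first Tbr2-negative or the second Tbr2-negative vehicle library, and 1 passed without the second Tbr2-positive or the third Tbr2-negative vehicle library. The next smallest p-values belonged to Atp5mpl (log2 fold change -0.44 ± 0.19 SE, adjusted p = 0.118, edgeR) and Atp5g1 (log2 fold change -0.36 ± 0.16 SE, adjusted p = 0.132, edgeR), whose values below 0 did not pass. Ndufaf5 (-0.42 ± 0.19 SE) and Atp5md (-0.43 ± 0.21 SE) followed on that side, and Ndufaf1 (0.51 ± 0.23 SE) and Atp5j (0.35 ± 0.18 SE) on the other. Outside the prefix rule, the regulator Nrf1 was higher (log2 fold change 0.48 ± 0.15 SE, adjusted p = 0.0406, edgeR) and the coactivator Ppargc1a lower (log2 fold change -1.14 ± 0.37 SE, adjusted p = 0.0424, edgeR) in Tbr2-positive vehicle libraries, and of 16 genes of the tricarboxylic acid cycle 3 were higher (Dld, Idh3g and Fh1) and none lower.

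With TSA in both groups, no gene passed (edgeR, 6 at an unadjusted p under 0.05, and 0 with DESeq2), against 4.19% of all genes higher and 5.13% lower. The median was -0.19 and 18 of 86 values were above 0, but without the first Tbr2-negative TSA library the median was 0.02. All Tbr2-positive TSA libraries lay below all Tbr2-negative TSA libraries for 32 genes and above them for 2, against 27.3% and 23.6% of all genes. The smallest p-values below 0 were those of Atp5g1 (-0.49 ± 0.19 SE), Atp5md (-0.64 ± 0.26), Cox7a2 (-0.49 ± 0.20) and Atp5mpl (-0.54 ± 0.23), and the smallest adjusted p was 0.147 (edgeR). Above 0 they were those of Ndufaf7 (0.34 ± 0.17 SE), Atp5d (0.25 ± 0.23), Ndufab1 (0.20 ± 0.22) and Ndufv1 (0.13 ± 0.17). This comparison shares its libraries with both TSA comparisons. Ndufs1, which was higher in Tbr2-positive libraries with vehicle, read 148 and 136 CPM in Tbr2-positive TSA and 133 and 143 CPM in Tbr2-negative TSA libraries, and these groups overlapped.

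Alongside the ubiquitous subunits, 9 isoforms and copies known from muscle, testis or low-oxygen settings were low, at no more than 1.91 CPM in any library, or had no count. Ndufa4l2, induced by low oxygen, ranged from 0.592 to 1.46 CPM over the 10 libraries. Cox4i2, a hypoxia-linked form of Cox4i1, ranged from 0.16 to 1.19 CPM. Cox7a1, the heart and muscle form of Cox7a2, ranged from 0.742 to 1.84 CPM, and Cox6b2, a testis form of Cox6b1, from 0.412 to 1.91 CPM. Cox7b2, the testis copy of Cox7b, ranged from 0 to 0.934 CPM. Cox6a2, a muscle form of Cox6a1, ranged from 0 to 0.502 CPM and Ndufb4c from 0 to 0.0911 CPM, while Cox8b and Cox8c had no count. None of the 5 isoforms tested passed in any comparison. A count of 0 allows up to 0.124 to 0.16 CPM in these libraries (3 counts, counting error only). Ndufa4l2, Cox7a1 and Cox6b2 lay above that range in every library.

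H3K9ac peaks stood at nearly all of these genes in every library. Counting a peak within 1 kb of either end of the RefSeq gene span, 80 to 86 of the 90 genes had one in each of the 15 libraries. The numbers were 85, 83 and 84 in Tbr2-positive vehicle, 80, 83, 81 and 80 in Tbr2-positive TSA, 86, 83, 85 and 86 in Tbr2-negative vehicle and 86, 83, 84 and 82 in Tbr2-negative TSA libraries. A peak in every library of the group was present at 82, 80, 82 and 81 genes in that order, against 61.1%, 55.9%, 61.9% and 60.9% of all protein-coding genes. Among the genes tested in RNA, which are expressed as most of these genes are, 77.8% had a gene-end peak in all 15 libraries, and 80 of the 90 respiratory chain genes did. All 8 genes of complex III and all 17 of complex V had one in every library, as did 45 of 47 in complex I and 10 of 18 in complex IV.

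The exceptions were mostly the isoforms, although Cox4i2 and Ndufa4l2, also low in RNA, had a gene-end peak in all 15 libraries. Cox7b2 had a peak in 0 of 15 libraries. Ndufb4c had one in 2, Cox8c in 3, Cox6a2 in 5, Cox6b2 in 7, Cox8b in 8 and Cox7a1 in 10. Cox5a and Cox7a2, ubiquitous subunits of complex IV with 65.4 ± 7.03 and 263 ± 29.4 CPM in Tbr2-positive vehicle (SD, n = 3), had a gene-end peak in 2 libraries and in 1. Their RefSeq spans, chr9:57517328-57532427 on the plus and chr9:79755241-79771422 on the minus strand (GRCm38.p6), reach beyond the start listed in the promoter table, and at that start both had a peak in all 15 libraries.

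**Figure D4:**
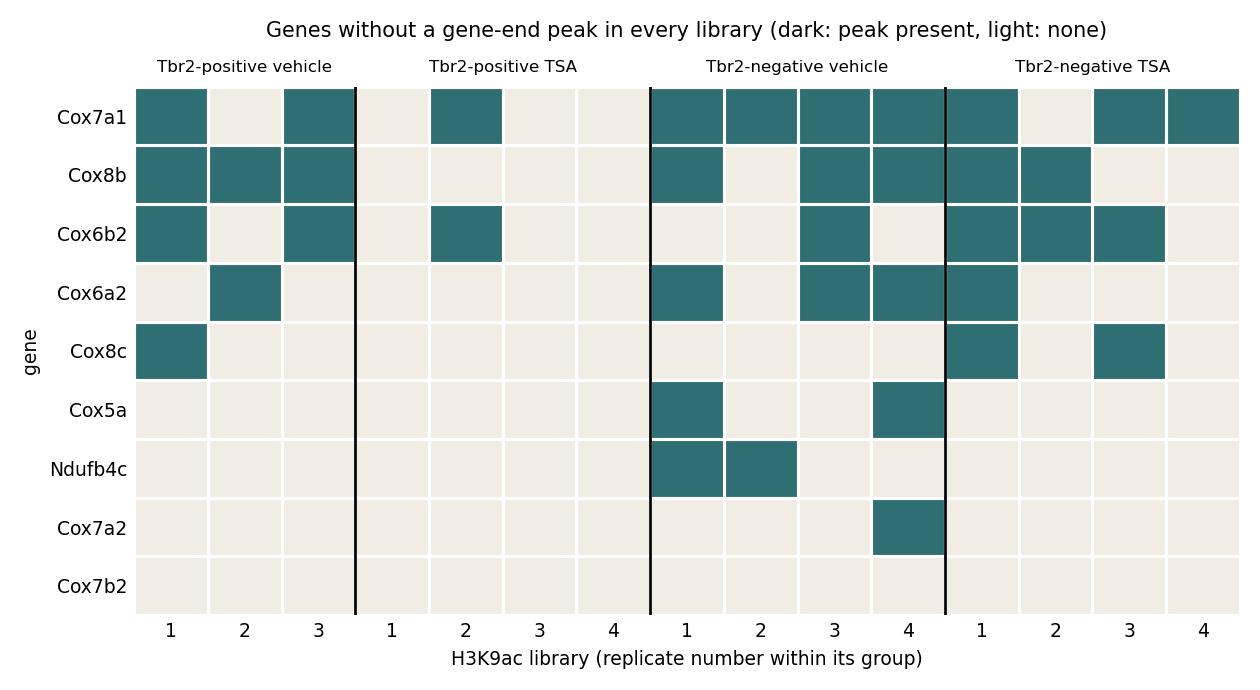
Of the respiratory chain genes, 9 (rows) without a gene-end H3K9ac peak in all 15 libraries (columns, grouped by population and treatment); dark cells have a peak within 1 kb of either gene end. Cox7b2 is light throughout, and Cox8b is dark in all 3 Tbr2-positive vehicle and light in all 4 Tbr2-positive TSA libraries.

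No respiratory chain gene gained a gene-end peak in every library of 1 group with none in the other, in any of the 4 comparisons, against 0.104% and 0.00473% of protein-coding genes gained in Tbr2-positive over Tbr2-negative libraries with vehicle and with TSA. With TSA over vehicle, 0.00473% gained one in the Tbr2-positive and 0.00946% in the Tbr2-negative fraction. Cox8b was the 1 gene to lose its peak, present in all 3 Tbr2-positive vehicle and in none of 4 Tbr2-positive TSA libraries, against 1.05% of protein-coding genes lost in that comparison, a share near that of the 90 genes. Its RNA had no count in any library, and its gene-end peaks in 8 libraries had a median percentile of 34.7 by significance among the peaks of their library. The other 3 comparisons had no loss, against 0.421%, 1.38% and 0.0284% of protein-coding genes lost in Tbr2-positive against Tbr2-negative with vehicle, the same with TSA, and TSA against vehicle in the Tbr2-negative fraction. The Tbr2-positive TSA libraries had the fewest peaks, 31823 to 40053, and the shallowest input, 20118388 tags against 25947550 to 30061311 in the other groups, and the part of these in the counts of peaks was not tested.

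Peaks were also counted from the transcript start. The RefSeq promoter table (build GRCm38.p6) listed a start for 73 of the 90 genes, and 69 of them had a peak within 1 kb of it in all 15 libraries, against 82.9% of the protein-coding genes tested in RNA that have a listed start. The 4 others were Cox6b2, Cox7a1, Cox7b2 and Cox8b. Counted in every library of a group, there were 70, 69, 70 and 69 genes in Tbr2-positive vehicle, Tbr2-positive TSA, Tbr2-negative vehicle and Tbr2-negative TSA, against 87.7%, 83.4%, 88.1% and 87.3% of the tested genes. All 40 genes of complex I, 5 of complex III and 15 of complex V with a listed start were among the 69. At 24 genes another gene's start lies within 1 kb, so the peak may be shared. Examples are Atp5j with Gabpa, Ndufa7 with Rps28, Ndufb5 with Mrpl47 and Uqcrh with Lrrc41. Whether a peak covers both starts was not measured. The summit of the strongest peak lay a median of 191 bp downstream of the start (quartiles 141 and 241 bp), and downstream at 61 of the 69 genes. Of the 8 with an upstream summit, Uqcrh (-1170 bp), Atp5h (-565), Ndufaf8 (-398), Ndufa1 (-379) and Ndufaf2 (-300) have another start within 1 kb. Cox6a1, Cox7a2 and Ndufaf7 do not.

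**Figure D5:**
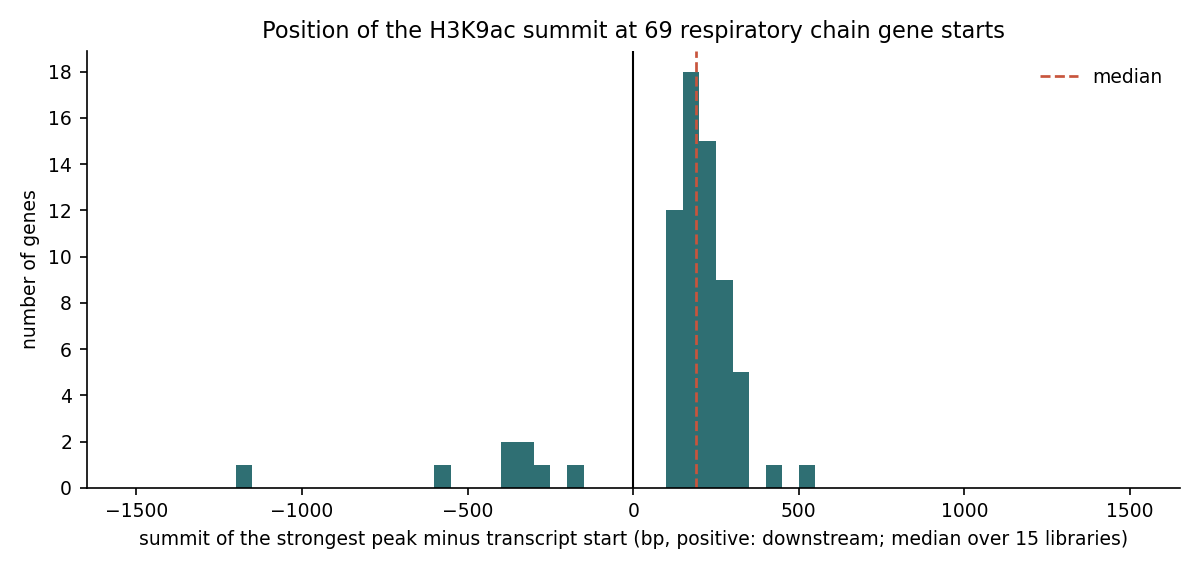
Number of genes (vertical axis) by the distance in bp from the transcript start to the summit of the strongest H3K9ac peak within 1 kb, as the median over 15 libraries (horizontal axis, positive is downstream), for the 69 genes with a start peak in all libraries. Most lie downstream, around the median of 191 bp (dashed line), and 8 lie upstream.

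Within each library, the start peaks of respiratory chain genes ranked above those of other tested genes. Their median percentile by -log10 q, the authors' measure of a peak's significance, among all peaks of the library was 88.6 to 96.0 over the 15 libraries, against 78.8 to 91.6 for the other tested genes, and it was the higher value in all 15. Among the 69 genes with a start peak in all libraries, Atp5c1 had the highest median percentile, 99.3 (from 93.4 to 99.9 over libraries), followed by Ndufc2 at 98.9 and Atp5pb, listed as Atp5f1 in the count files, at 98.7. The lowest of the 69 were Ndufa1 at 74.0, Cox7b at 79.1 and Ndufs7 at 80.8. Lists of different lengths give percentiles that cannot be compared between libraries, so no change with TSA or population was read from them.

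The promoter sequences of 4 genes show how these starts differ in their motifs. Cox6a1 and Ndufb4 hold matches to the motif of NRF1, a factor known for respiratory chain genes. Atp5j holds one to the motif of the ETS family, to which GABPA (also known as NRF2) belongs, and Cox7b2 is the gene with no peak and almost no RNA. Each run covers 120 bases before and the first 30 bases of the transcript (RefSeq, build GRCm38.p6), 5′ to 3′ on the gene's strand, with matches to NRF1, ETS or YY1 motifs in capitals.
Cox6a1, chr5:115348929-115349078, minus strand: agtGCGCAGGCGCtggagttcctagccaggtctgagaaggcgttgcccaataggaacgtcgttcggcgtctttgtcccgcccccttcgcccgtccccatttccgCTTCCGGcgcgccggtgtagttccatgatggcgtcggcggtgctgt
Ndufb4, chr16:37654339-37654488, minus strand: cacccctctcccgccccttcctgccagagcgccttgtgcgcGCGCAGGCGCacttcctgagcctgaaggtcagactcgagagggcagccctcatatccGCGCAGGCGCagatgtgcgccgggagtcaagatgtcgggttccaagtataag
Atp5j, chr16:84834947-84835096, minus strand: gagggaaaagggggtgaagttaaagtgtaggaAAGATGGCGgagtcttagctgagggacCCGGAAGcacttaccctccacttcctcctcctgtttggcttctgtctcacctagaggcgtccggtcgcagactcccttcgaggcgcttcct
Cox7b2, chr5:71548176-71548325, minus strand: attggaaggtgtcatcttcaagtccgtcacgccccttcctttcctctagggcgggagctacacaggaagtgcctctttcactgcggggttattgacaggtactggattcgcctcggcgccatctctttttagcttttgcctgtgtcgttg
In capitals, Cox6a1 has 1 NRF1 and 1 ETS match, Ndufb4 2 NRF1 matches, Atp5j 1 ETS and 1 YY1 match, and Cox7b2 none. Cox6a1, Ndufb4 and Atp5j had a start peak in all 15 libraries. These 4 genes were picked for their motif matches or for the lack of a peak, so no link between motif and peak can be read from them. Cox5a, Cox7a2 and Ndufa10, without an NRF1, ETS or YY1 match in their windows, also had a start peak in all 15 libraries.

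Over the 300-base windows of all 73 genes (250 bases before to 50 after the start, either strand), the NRF1 motif, GCGCA and GCGC with any base between them, was found in 17 genes (23.3%), against 10.5% of the 11632 protein-coding genes tested in RNA with a window and 5.19% of all 27025 genes in the table. The ETS motif CCGGAAG was found in 17 genes (23.3%), against 17.9% and 9.93%. The YY1 motif AANATGGCG was found in 11 genes (15.1%), against 5.24% and 2.76%. The motif AAGGTCA of the estrogen-related receptors was found in 7 genes (9.59%), against 3.98% and 5.38%. GC boxes, GGGCGG, were found in 33 genes (45.2%), against 66.7% and 38.2%, and the CCAAT box, CCAAT, in 32 (43.8%), against 42.9% and 41.1%. TATA boxes, TATAAA, were found in 8 genes (11%), against 9.31% and 15.7%. Matches of ETS and YY1 fell together in the windows of Atp5j and Ndufaf8, those of NRF1 and ETS in the windows of Atp5h, Atp5k and Cox6a1, and those of NRF1 and YY1 in the window of Ndufs6. Matches of different motifs may overlap. A match describes the letters of the window and is not evidence of binding.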

How the data were processed

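The deposited RNA files held raw counts per gene for 10 libraries (TruSeq RNA v2, per the labels; the kit does not mark strand, so reads of a gene and of an antisense partner cannot be told apart). The aligner and counter: not given in the sources used here. Of tools and builds, mm10, SAMtools and MACS2 are named by the submitters' processing notes. Per the file headers, the authors called H3K9ac peaks in each of 15 libraries with MACS 2.1.0.20140616 against 1 input per group, at a q-value threshold of 0.1, and the deposited lists give each peak's -log10 q-value. The 4 input libraries themselves were not used here.

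Counts were scaled by TMM and tested with edgeR 4.0.16 (quasi-likelihood, robust) in R 4.3.3 over all 10 libraries and the 20078 genes kept by filterByExpr, with Benjamini-Hochberg adjustment over all of them and a threshold of 0.05. The common biological coefficient of variation was 0.3736. SE is the log2 fold change over the square root of its F statistic. DESeq2 1.42.0 was an alternative, as were RLE scaling, no filter, fits with only the groups compared or with a replicate block, and leaving out each library. Peaks were compared by presence within 1 kb of either gene end (RefSeq, GRCm38.p6), with other windows (0 and 2 kb) and a stricter threshold as alternatives. The scripts were tested on simulated data. Python 3.11.15, pandas 2.3.3, numpy 2.4.6 and matplotlib 3.10.9 were used.

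Named genes were the up to 5 passing genes per direction with the smallest p, or the 4 smallest per direction where fewer than 3 passed, together with catalytic subunits, tissue isoforms and genes lacking peaks; Atp5c1, Ndufc2, Atp5pb, Ndufa1, Cox7b and Ndufs7 were singled out for their peak ranks, and Cox5a, Cox6a1, Ndufaf2 and Ndufaf8 for their calls, after their values were seen. Levels per coding length were not analysed here, and single results of a few genes are not reported here. The genes, the 10 related lists and the 9 lists of cell type markers were chosen with earlier results of these data known.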

Additional observations from a re-analysis of the deposited data

Results flagged for a closer look

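In the count of respiratory chain genes with an H3K9ac peak within 1 kb of the transcript start, 1 library of each of 2 groups stood apart. In Tbr2-positive TSA, 1 library had 71 such genes and the other 3 had 69 each. In Tbr2-negative vehicle, 1 library had 70 and the other 3 had 71 each. A start was listed for 73 genes. In all, 12 sets of 4 values were examined for a library apart from the rest, and the same libraries recur among these sets. A chance rate of about 1 in 20 sets does not hold here. Where the other 3 values are tied, any difference sets a library apart.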

How the results depend on the processing

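Between vehicle populations, the count of respiratory chain genes past the threshold was 2, against 1 with no filter on low counts and 0 to 2 without 1 library. With TSA in both populations, the median log2 fold change of -0.19 ranged from -0.33 to 0.02 without 1 library, and was 0.0219 without the first Tbr2-negative TSA library. For TSA in the Tbr2-positive fraction, the count was 0, against 12 with no filter, 30 with DESeq2 and 0 to 1 without 1 library. For TSA in the Tbr2-negative fraction it was 23, against 52 with no filter, 60 with DESeq2 and 0 to 46 without 1 library, and all 23 were among the 52 and the 60. For the mean of both populations it was 61, and 18 to 63 without 1 library. The causes were not tested. With no window around gene ends, a peak in every library was found at 54, 37, 54 and 51 genes in Tbr2-positive vehicle, Tbr2-positive TSA, Tbr2-negative vehicle and Tbr2-negative TSA, and the all-against-none count was 1 between populations with vehicle, 1 with TSA, and 2 for TSA in the Tbr2-positive fraction; that window reaches only peaks that cover the end itself. Of 1972 recomputed values of 130 single-gene results, 1798 kept direction and side of the threshold.

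The labels do not say that replicate numbers pair the RNA samples. In their deviations from group means, same-numbered libraries of the 2 populations correlated at 0.0994, 0.0806 and 0.0985 with vehicle and at 0.117 with TSA, and those of different numbers at -0.0779 to -0.0148 and -0.117, so each correlated best with its own number, as a hint from the data. With 2 TSA libraries per group the deviations mirror each other, so 0.117 and -0.117 are a single value. The main fits took the 10 libraries as independent. Pairing of the 2 populations within a treatment remains possible. If it holds, the mean of both populations counts the same samples in both fractions, and its p-values may be too small. Same-numbered vehicle and TSA libraries of 1 population correlated at -0.0297 to -0.00751, which does not bear on that pairing. A block on the replicate number over all libraries also joins vehicle and TSA libraries of the same number. With it, the counts were 1 between vehicle populations, 0 in place of 23 for TSA in the Tbr2-negative fraction and 54 for the mean of both. For H3K9ac alone, peak presence was compared without a test and has no blocked form.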
